A study of Mus musculus with 9 samples.

Results

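Collagens are the main structural proteins of the extracellular matrix, and their transcripts are described here in the duodenum of mice. Of 54532 genes in the deposited table, the 44 protein-coding genes whose symbol is Col, a number, the letter a and a number were taken as collagen genes. They were divided into 11 fibrillar, 6 basement membrane and 27 other collagen genes. The series measured RNA in 9 duodenal libraries, 3 per group, by directional sequencing after removal of ribosomal RNA. CeD+GR mice were a delayed-type hypersensitivity (DTH) model of celiac disease, an intolerance to dietary gluten that damages the small intestine. They were given composite nanoparticles of gliadin, a gluten fraction, and rapamycin, an inhibitor of the mTOR kinase, before gluten stimulation that was enhanced. CeD mice were the same DTH model under enhanced gluten stimulation without these particles. Control mice were wild type (WT), and their gluten stimulation was non-enhanced, so CeD and control differ in both the model and the stimulation. Each library is called by its group and replicate number. The labels give no strain, age, dose or number of animals. Nor do they tell whether the libraries of a group are separate animals, and p-values here reflect the spread among libraries, some of which could be technical.

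A collagen molecule is built from alpha chains that wind around one another in a rope-like helix, and each chain is encoded by a gene of its own. Fibrillar collagens assemble into the fibres that give tissue its strength. Type IV collagens form the sheet-like network of basement membranes under the epithelium and around vessels and muscle, and the other types link fibrils, form beaded filaments or short-chain networks, or span the cell membrane. In the intestine, fibroblasts and smooth muscle cells of the mucosa and the muscle wall make most of the fibrillar chains, and collagen accumulates in fibrosis.

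Levels are the deposited FPKM, that is fragments per kilobase of gene length scaled for library size. Between 15373260 and 16852104 reads per library lay in genes, and collagens took 0.0332% to 0.142% of them. All 7 epithelial markers, such as Vil1 and Epcam, were above 1 FPKM in every library, and all 8 fibroblast markers were above 0. Several libraries stood apart before any collagen was considered. Library CeD+GR 3 held all 6 gastric mucous cell markers, with a summed level of 121321 FPKM, against 0 to 46.6 FPKM in the other 8 libraries. Tff2 at 116219 FPKM and Muc6 at 3268 FPKM made up most of this sum. Brunner glands of the duodenum make both as well, so the sum does not tell stomach from Brunner gland tissue. Gkn1, Gkn2, Muc5ac and Tff1 were at 13.6 to 1225 FPKM in that library. Library CeD 1 held all 7 exocrine pancreas markers with a sum of 3032 FPKM, against 0 to 42.1 FPKM elsewhere. Adipocyte markers summed to 273 FPKM in CeD+GR 2 and to 46.5 to 88.9 FPKM in the rest. Paneth cell markers summed to 1037 to 2081 FPKM in the 3 libraries with replicate number 1 and to 72.9 to 170 FPKM in the other 6. What part these tissues have in the collagen values was not tested, and fewer cells of a type cannot be told apart from less RNA per cell in such whole-tissue samples.

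Of the 44 collagen genes, 25 averaged 0.5 FPKM or more across the libraries and were tested, namely 8 fibrillar, 3 basement membrane and 14 other genes. Just inside this limit were Col9a3 with a mean of 0.506 FPKM and Col4a5 with 0.534 FPKM, and just outside it were Col9a2 with 0.447 FPKM and Col6a5 with 0.415 FPKM. For 4 of the tested genes, Col4a5, Col5a3, Col9a3 and Col11a2, the mean without the highest library fell under the limit. That library was CeD 1 for Col4a5, CeD+GR 2 for Col5a3 and CeD+GR 3 for Col9a3 and Col11a2. Genes that passed only through 1 group tend to be higher in it, so their positive signs for that group are no support. The 6 leading genes by mean level per deposited length were, in order, Col6a1 with 15.1 FPKM, Col4a1 with 10.5 FPKM, Col3a1 with 9.93 FPKM, Col18a1 with 8.62 FPKM, Col4a2 with 8.15 FPKM and Col1a1 with 6.58 FPKM. Together they made up 52.3% to 64.4% of the summed collagen FPKM of a library. The order of neighbours is loose, since SDs within a group reached 10.5 FPKM for Col6a1 and 25.1 FPKM for Col18a1.

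**Figure D1:**
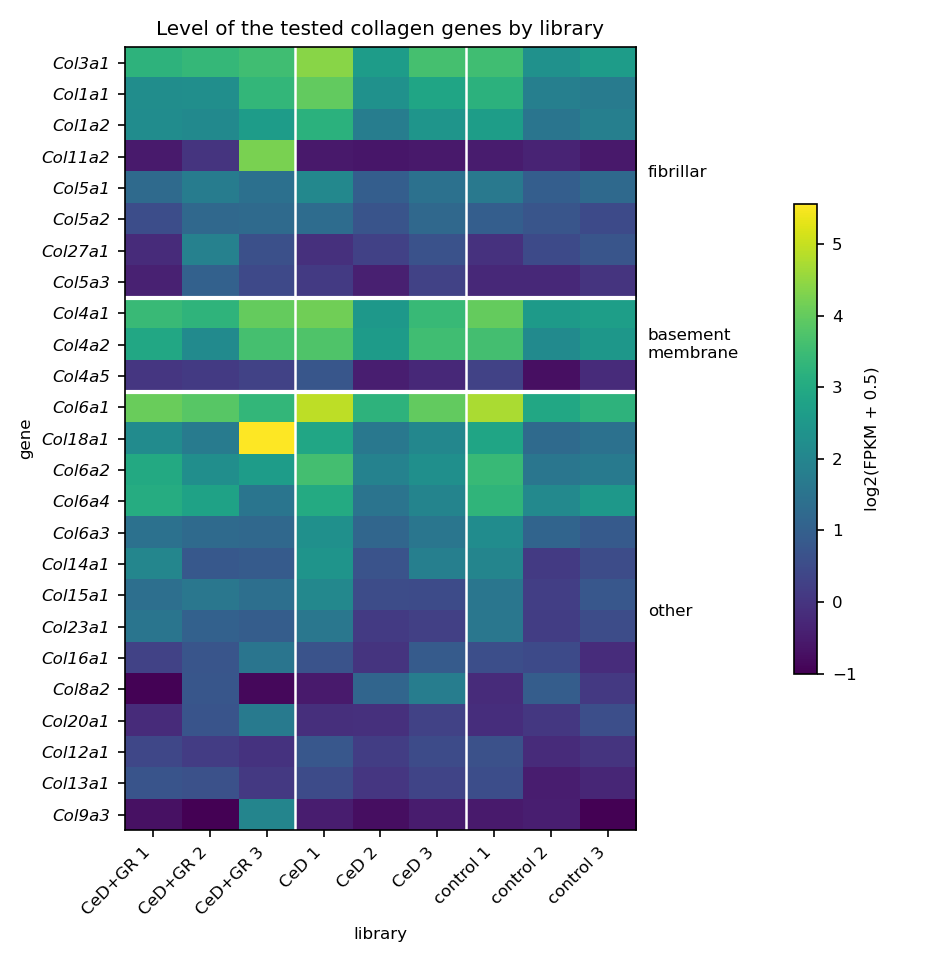
Level of the 25 tested collagen genes in each library, as log2(FPKM + 0.5) by colour, with genes down the page by class and mean level and libraries across by group. Col6a1 is high in every library, CeD 1 and control 1 are bright over many rows, and Col18a1 and Col11a2 are bright in CeD+GR 3, with 46.8 and 18.5 FPKM.

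Among the fibrillar genes, the chains of types I and III were the most abundant. Col3a1 (ENSMUSG00000026043, mm10 chromosome 1, 45311538 to 45349706), which encodes the chain of type III collagen in pliable tissues such as the gut wall, had 8.98, 9.78 and 11.2 FPKM in CeD+GR, 20.5, 5.69 and 11.9 FPKM in CeD and 11.2, 4.52 and 5.64 FPKM in control. CeD 1 was the highest and control 2 the lowest, and the ranges of the 3 groups overlapped. Col1a1 (ENSMUSG00000001506, mm10 chromosome 11, 94936224 to 94953042) and Col1a2 (ENSMUSG00000029661, mm10 chromosome 6, 4504814 to 4541544) encode the alpha 1 and alpha 2 chains of type I collagen, the principal fibre collagen of the body. Col1a1 had 4.18, 4.26 and 9.63 FPKM in CeD+GR, 15.2, 4.47 and 6.79 FPKM in CeD and 8.85, 3.04 and 2.81 FPKM in control. Col1a2 had 4.05, 3.86 and 5.72 FPKM in CeD+GR, 8.66, 2.95 and 4.87 FPKM in CeD and 5.81, 2.44 and 3.07 FPKM in control. For both chains CeD 1 stood highest, the low libraries were control 2 and control 3 for Col1a1 and control 2 and CeD 2 for Col1a2, and every pair of groups overlapped.

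Type V collagen is a minor partner of type I that nucleates and limits the width of fibrils. Its chain gene Col5a1 had 1.91, 2.91 and 2.18 FPKM in CeD+GR, 3.68, 1.46 and 2.22 FPKM in CeD and 2.66, 1.46 and 1.89 FPKM in control. Col5a2 had 0.956, 1.82 and 1.91 FPKM in CeD+GR, 1.99, 1.13 and 1.83 FPKM in CeD and 1.43, 1.15 and 0.890 FPKM in control. Libraries varied less in these genes than in type I, with CeD 1 again the highest in both. Col5a3, the third type V chain, had 0.256, 1.54 and 0.862 FPKM in CeD+GR, 0.577, 0.245 and 0.722 FPKM in CeD and 0.347, 0.341 and 0.496 FPKM in control, and its high value in CeD+GR 2 came from the library with the most adipocyte marker transcripts. Col27a1, a fibrillar collagen best known from cartilage, was also highest there, with 0.377, 3.16 and 1.02 FPKM in CeD+GR, 0.435, 0.714 and 1.09 FPKM in CeD and 0.460, 0.897 and 1.17 FPKM in control. Col11a2, which encodes a type XI chain of cartilage fibrils, had 0.189, 0.483 and 18.5 FPKM in CeD+GR, 0.181, 0.163 and 0.178 FPKM in CeD and 0.209, 0.290 and 0.182 FPKM in control. Its 18.5 FPKM in CeD+GR 3 rested on 2065 reads, against 16 to 52 reads in each other library. The remaining fibrillar genes, Col2a1, Col11a1 and Col24a1, stayed at or below 0.179 FPKM in every library, and Col2a1, the main collagen of cartilage, had 1 read in all.

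Promoter windows of 250 bases before to 50 after the annotated start (RefSeq, build GRCm38.p6) show how Col3a1 and Col1a2 are laid out. Col1a1, also a leading fibrillar gene, had no promoter entry and is not shown. Capitals mark the CCAAT box, the TATA element TATAAA and the GC box GGGCGG on either strand. A CCAAT of the reverse strand reads ATTGG, and a GC box of the reverse strand reads CCGCCC. The Col3a1 window lies at chr1:45311288-45311587 and the Col1a2 window at chr6:4505368-4505667, both on the plus strand. The RefSeq start of Col1a2 is 804 bases inside the gene as deposited.
Col3a1: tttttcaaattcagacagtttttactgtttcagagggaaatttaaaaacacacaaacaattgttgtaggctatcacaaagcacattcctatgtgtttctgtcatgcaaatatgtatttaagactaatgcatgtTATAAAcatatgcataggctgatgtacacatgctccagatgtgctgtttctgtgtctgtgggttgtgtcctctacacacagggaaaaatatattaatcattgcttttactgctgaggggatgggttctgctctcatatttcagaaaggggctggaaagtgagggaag
Col1a2: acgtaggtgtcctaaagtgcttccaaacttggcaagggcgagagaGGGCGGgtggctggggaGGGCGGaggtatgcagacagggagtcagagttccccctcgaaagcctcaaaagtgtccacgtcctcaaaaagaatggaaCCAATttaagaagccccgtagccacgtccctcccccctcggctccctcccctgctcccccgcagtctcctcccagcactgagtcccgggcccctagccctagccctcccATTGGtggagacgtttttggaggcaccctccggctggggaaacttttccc
The Col3a1 window held a TATAAA at position -117 from the start and no CCAAT or GGGCGG. The Col1a2 window held 2 GGGCGG and 2 CCAAT, of which 1 reads on the reverse strand, and no TATAAA. These matches are letters in a window and were not tested for binding.

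Basement membrane chains were led by Col4a1 and Col4a2, which together form the type IV network found in nearly all basement membranes. Col4a1 (ENSMUSG00000031502, mm10 chromosome 8, 11198423 to 11312826) had 10.4, 9.20 and 15.7 FPKM in CeD+GR, 17.1, 5.12 and 10.2 FPKM in CeD and 15.7, 5.43 and 5.94 FPKM in control. Col4a2 (ENSMUSG00000031503, mm10 chromosome 8, 11312805 to 11449287) had 7.12, 3.88 and 11.8 FPKM in CeD+GR, 13.1, 5.56 and 11.3 FPKM in CeD and 11.6, 3.93 and 5.04 FPKM in control. CeD 1, control 1 and CeD+GR 3 were the high libraries for both chains, with CeD 3 close behind for Col4a2, and the groups overlapped. Col4a5, a chain of the more specialised networks of kidney and other basement membranes, had 0.519, 0.586 and 0.728 FPKM in CeD+GR, 1.19, 0.238 and 0.343 FPKM in CeD and 0.728, 0.102 and 0.379 FPKM in control. The other genes of the class, Col4a3, Col4a4 and Col4a6, were not tested and lay at or below 0.496 FPKM in every library.

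Col4a1 and Col4a2 stand head to head on chromosome 8, with starts 21 bases apart and an overlap of 22 bases, and their promoter windows share 78 of 300 bases. The same arrangement holds for Col4a3 and Col4a4, whose starts are 72 bases apart, and for Col4a5 and Col4a6 at 1309 bases. The windows of the abundant pair are shown because they cover 1 shared start region, with Col4a1 at chr8:11312777-11313076 on the minus strand and Col4a2 at chr8:11312555-11312854 on the plus strand.
Col4a1: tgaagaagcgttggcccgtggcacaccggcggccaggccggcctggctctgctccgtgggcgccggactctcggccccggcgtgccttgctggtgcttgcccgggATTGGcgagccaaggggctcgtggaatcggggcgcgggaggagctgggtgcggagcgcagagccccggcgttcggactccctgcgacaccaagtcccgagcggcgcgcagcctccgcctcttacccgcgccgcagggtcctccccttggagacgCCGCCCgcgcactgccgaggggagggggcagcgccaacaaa
Col4a2: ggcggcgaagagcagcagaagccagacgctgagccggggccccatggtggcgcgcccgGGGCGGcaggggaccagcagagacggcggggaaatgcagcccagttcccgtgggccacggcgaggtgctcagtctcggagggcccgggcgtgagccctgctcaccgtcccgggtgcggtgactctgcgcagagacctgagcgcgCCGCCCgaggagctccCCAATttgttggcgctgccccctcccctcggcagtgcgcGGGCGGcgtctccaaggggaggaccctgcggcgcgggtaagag
Within the shared stretch lies 1 GGGCGG, at position 11312812, that reads CCGCCC in the Col4a1 window. The Col4a2 window held 3 GGGCGG and 1 CCAAT, the Col4a1 window 1 of each. Over the 38 promoter windows of 35 collagen genes that the RefSeq table held, 60.5% contained GGGCGG, against 35.7% of 32851 promoters of the same length. CCAAT lay in 34.2% of the collagen windows against 37.4% of all promoters, and TATAAA in 13.2% against 13.6%. Collagen windows were also richer in G and C, at 59.0% against 53.8% of bases, a property that GGGCGG shares.

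Among the other collagens, the beaded filament collagen type VI was the most abundant. Col6a1 (ENSMUSG00000001119, mm10 chromosome 10, 76708792 to 76726168), Col6a2 (ENSMUSG00000020241, mm10 chromosome 10, 76595762 to 76623630) and Col6a3 (ENSMUSG00000048126, mm10 chromosome 1, 90765923 to 90843971) encode its classical chains, which anchor cells to the surrounding matrix. Col6a1 had 16.2, 14.0 and 9.65 FPKM in CeD+GR, 29.6, 9.05 and 15.4 FPKM in CeD and 26, 7.22 and 9.05 FPKM in control. Col6a2 had 7.44, 4.25 and 5.68 FPKM in CeD+GR, 11.7, 3.23 and 4.31 FPKM in CeD and 10.3, 2.49 and 2.74 FPKM in control. Col6a3 had 2.25, 1.92 and 1.85 FPKM in CeD+GR, 4.43, 1.74 and 2.5 FPKM in CeD and 4.04, 1.67 and 1.30 FPKM in control. In all 3 genes CeD 1 and control 1 were the highest libraries and the groups overlapped. Col6a4, an alternative type VI chain gene that is active in mouse, averaged 5.53 ± 2.80 FPKM in CeD+GR, 4.47 ± 2.77 FPKM in CeD and 6.07 ± 2.85 FPKM in control (SD, n = 3 each).

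FACIT collagens sit on the surface of fibrils and link them to other molecules. Col14a1 (ENSMUSG00000022371, mm10 chromosome 15, 55307750 to 55520803), a FACIT of connective tissue, had 3.54, 1.25 and 1.33 FPKM in CeD+GR, 4.77, 1.10 and 3.07 FPKM in CeD and 3.48, 0.584 and 0.930 FPKM in control. The highest levels were those of CeD 1 and the other replicate 1 libraries, and the lowest was control 2. Col12a1, a FACIT that binds type I fibrils, had 0.827, 0.621 and 0.474 FPKM in CeD+GR, 1.21, 0.647 and 0.916 FPKM in CeD and 1.04, 0.368 and 0.494 FPKM in control. Col16a1, found near basement membranes and fibrils, had 0.737, 1.17 and 2.45 FPKM in CeD+GR, 1.09, 0.493 and 1.35 FPKM in CeD and 1.0, 0.901 and 0.386 FPKM in control, with its peak in CeD+GR 3. Col20a1, a little-studied FACIT, had 0.377, 1.12 and 2.68 FPKM in CeD+GR, 0.425, 0.432 and 0.732 FPKM in CeD and 0.406, 0.545 and 1.0 FPKM in control. CeD+GR 3 was again the highest library and was followed by CeD+GR 2. Col9a3, a type IX chain of cartilage, was at 3.49 FPKM in CeD+GR 3 and at 0.230 FPKM or less elsewhere, with 0 reads in CeD+GR 2 and control 3.

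Col15a1 and Col18a1 encode the multiplexins, basement membrane associated collagens whose ends can be cut off as antiangiogenic fragments, endostatin in the case of Col18a1. Col15a1 had 2.15, 2.55 and 2.15 FPKM in CeD+GR, 3.67, 0.951 and 0.908 FPKM in CeD and 2.47, 0.667 and 1.21 FPKM in control. Control 2 was the lowest library, CeD 1 the highest, and the groups overlapped. Col18a1 (ENSMUSG00000001435, mm10 chromosome 10, 77052178 to 77166548) had 3.95, 2.79 and 46.8 FPKM in CeD+GR, 6.92, 2.57 and 3.63 FPKM in CeD and 6.70, 1.93 and 2.25 FPKM in control. CeD+GR 3 was 6.77 times the next highest library, and the 8 others ranged from 1.93 to 6.92 FPKM, with CeD 1 and control 1 the highest of those. Col18a1 overlaps Slc19a1, a folate carrier gene on the opposite strand, by 8825 bases. As the strand setting of the counting is not given in the sources used here, reads there cannot be assigned with certainty. Slc19a1 stood at 7.72 FPKM in CeD+GR 3 and at 4.22 to 14.1 FPKM in the other libraries.

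For Col18a1 the RefSeq table held 2 annotated starts, both on the minus strand, which are shown because this gene had the largest range among the leading collagens. The upstream window lies at chr10:77166481-77166780 and the downstream window at chr10:77113656-77113955, 52843 bases inside the gene as deposited.
Col18a1 upstream: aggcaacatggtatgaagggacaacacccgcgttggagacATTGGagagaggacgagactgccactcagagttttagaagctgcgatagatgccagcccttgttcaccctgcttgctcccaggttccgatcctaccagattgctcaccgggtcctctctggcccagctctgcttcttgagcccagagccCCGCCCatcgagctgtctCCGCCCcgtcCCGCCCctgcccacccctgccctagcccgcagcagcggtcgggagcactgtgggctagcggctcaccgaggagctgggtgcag
Col18a1 downstream: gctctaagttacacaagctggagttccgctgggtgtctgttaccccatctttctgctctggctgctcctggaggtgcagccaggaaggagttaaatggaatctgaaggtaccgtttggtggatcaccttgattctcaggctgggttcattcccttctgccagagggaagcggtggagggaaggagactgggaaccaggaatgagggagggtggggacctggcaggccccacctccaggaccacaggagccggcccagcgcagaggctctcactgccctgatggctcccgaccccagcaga
The upstream window held 3 GGGCGG and 1 CCAAT, all read from the reverse strand, and the downstream window held none of the 3 motifs. The deposited table gives 1 value for the gene, so the use of each start was not measured.

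Transmembrane collagens and short-chain network collagens were low. Col13a1, a transmembrane collagen of cell junctions, had 1.12, 1.03 and 0.571 FPKM in CeD+GR, 0.913, 0.527 and 0.764 FPKM in CeD and 0.966, 0.222 and 0.322 FPKM in control. Col23a1, of the same group, averaged 1.80 ± 0.532 FPKM in CeD+GR, 1.28 ± 1.10 FPKM in CeD and 1.37 ± 1.01 FPKM in control (SD, n = 3 each). Col8a2, which encodes a short-chain network collagen of the eye and of vessel walls, had 0.0144, 1.2 and 0.0545 FPKM in CeD+GR, 0.20, 1.72 and 2.95 FPKM in CeD and 0.379, 1.42 and 0.568 FPKM in control. Here the replicate 1 libraries and CeD+GR 3 were low, and CeD 3 was the highest, with the groups overlapping. Col17a1, the transmembrane collagen of skin hemidesmosomes, had 0 to 7 reads per library and at most 0.0829 FPKM. Col7a1, the anchoring fibril collagen of skin, had 0.0690, 0.660 and 0.101 FPKM in CeD+GR, 0.709, 0.148 and 0.206 FPKM in CeD and 0.230, 0.352 and 0.156 FPKM in control, the higher libraries being CeD 1 and CeD+GR 2. In all, 19 collagen genes were not tested. Their means ran from 0.000834 to 0.447 FPKM, the highest single value was 1.08 FPKM for Col9a2 in control 2, and 9 of the 19 had reads in all 9 libraries. Their read totals over the 9 libraries ran from 1 to 591, and those of the tested genes from 287 to 14572. These ranges overlap, since the genes were left out by mean FPKM and not by reads.

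Chains of types I, IV, V and VI assemble with others of their type into 1 molecule. Ratios of FPKM within a library were computed for pairs of genes of 1 such type, whether or not both chains share a molecule. They were also computed for 2 pairs of different types, Col3a1 over Col1a1 and Col18a1 over Col15a1. Col1a1 over Col1a2 ran from 0.914 in control 3 to 1.76 in CeD 1, with a mean of 1.35. Col4a1 over Col4a2 was 1.46, 2.38 and 1.32 in CeD+GR, 1.30, 0.922 and 0.902 in CeD and 1.36, 1.38 and 1.18 in control. All 3 CeD+GR libraries lay above all 3 CeD libraries for this ratio, which was picked out after its values were seen and was not tested. Col6a1 over Col6a2 ranged from 1.70 to 3.57 and Col6a1 over Col6a3 from 4.32 to 7.27, with overlapping groups. Col6a4 over Col6a3 varied more, from 1.31 in CeD+GR 3 to 3.97 in control 3. Col18a1 over Col15a1 was 21.8 in CeD+GR 3 and 1.10 to 4.0 in the other libraries.

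These ratios hang on the gene length by which the authors divided. The deposited length of Col1a2 is 12426 bases, while its transcript with the longest coding sequence in GENCODE M21 has 5348 bases; for Col6a2 the lengths are 8326 and 3949 bases. With transcript lengths, an alternative chosen after seeing the data, the mean Col1a1 over Col1a2 became 0.644 in place of 1.35, and Col6a1 over Col6a2 became 1.40 in place of 2.75. The 6 leading genes were then Col3a1, Col6a1, Col6a2, Col4a1, Col18a1 and Col1a2. Ratios of a gene's FPKM between libraries are not touched by this choice, since its length is the same in every library.

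**Figure D2:**
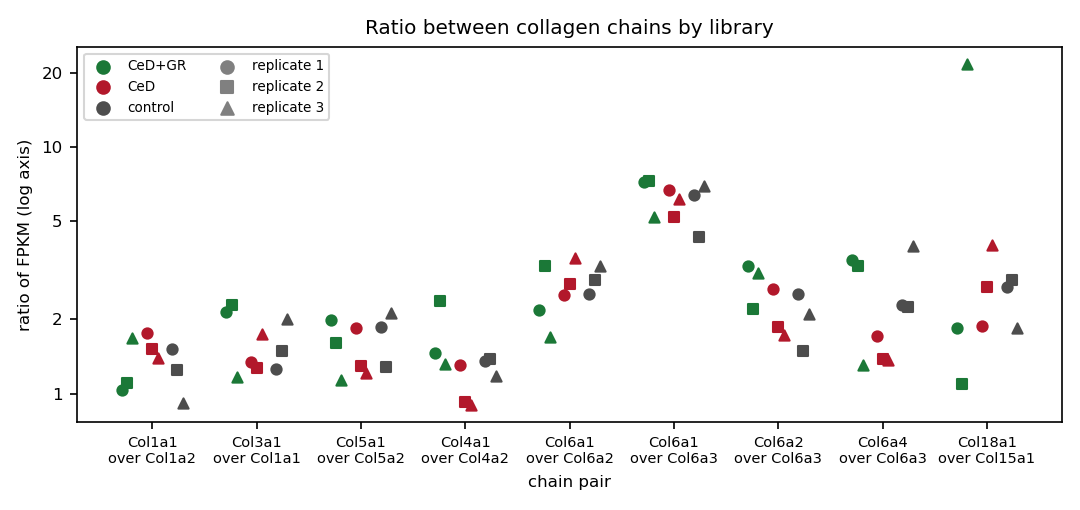
Ratio of FPKM between 9 pairs of collagen chains on a log axis, 1 point per library, coloured by group and shaped by replicate number. In 8 of the 9 pairs the highest library is at most 3.04 times the lowest, Col4a1 over Col4a2 is 2.38 in CeD+GR 2, and Col18a1 over Col15a1 is 21.8 in CeD+GR 3.

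Summed over all 44 genes, collagens reached 89.7, 83.9 and 163 FPKM in CeD+GR, 162, 54.9 and 94.8 FPKM in CeD and 130, 48.9 and 56.3 FPKM in control. The mean was 112 ± 44 FPKM in CeD+GR, 104 ± 53.9 FPKM in CeD and 78.4 ± 44.9 FPKM in control (SD, n = 3 each), so the groups differed by less than the spread within them. Without Col18a1, Col11a2 and Col9a3, left out after seeing the data, CeD+GR averaged 86.7 ± 6.77 FPKM, CeD 99.0 ± 51.6 FPKM and control 74.4 ± 42.2 FPKM. Composition was steadier than amount. Fibrillar genes made up 23.4% to 33.3% of the summed collagen FPKM, basement membrane genes 16.7% to 23.8% and other genes 44.9% to 55.5%.

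**Figure D3:**
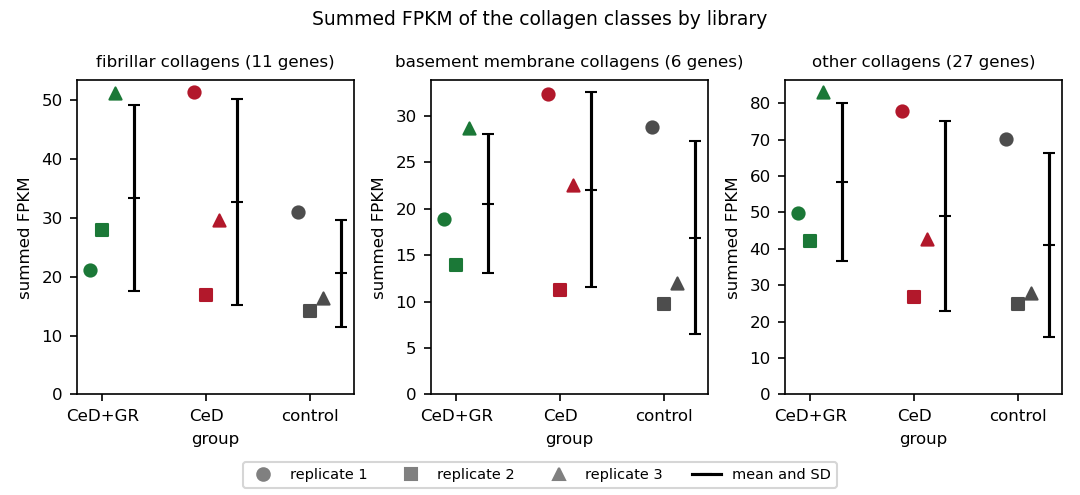
Summed FPKM of the fibrillar, basement membrane and other collagen genes in each library, with groups on the horizontal axis, replicate numbers as symbols and bars for the mean and SD of 3 libraries. Replicate 1 is the highest library of CeD and of control in each class, at 51.4 and 31.0 FPKM for fibrillar genes, whereas CeD+GR 3 is the highest of CeD+GR.

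High and low values of different collagens tended to fall in the same libraries. CeD 1 was the highest library for 15 of the 25 tested genes, CeD+GR 3 for 5, and control 2 was the lowest for 10. Replicate 1 was the highest library of its group for 8 of 25 collagens in CeD+GR (32.0%), 20 in CeD (80.0%) and 19 in control (76.0%), against 30.4%, 38.8% and 42.4% of all tested genes. In 8 genes it was the highest in all 3 groups, namely Col6a1, Col6a2, Col6a3, Col6a4, Col12a1, Col13a1, Col14a1 and Col23a1, and none of these is fibrillar or of type IV. That is 32.0% of the tested collagens, against 13.5% of all tested genes. The classes differed in this mainly in CeD+GR, where replicate 1 was the highest for 0 of 8 fibrillar, 0 of 3 type IV and 8 of 14 other genes. It was the highest in both CeD and control for 5 of 8 fibrillar, 3 of 3 type IV and 10 of 14 other genes, against 30.5% of all tested genes. The level of fibroblast markers, as a mean of log2(FPKM + 0.5) over 8 genes, was 2.52, 2.52 and 2.63 in CeD+GR, 2.93, 2.09 and 2.61 in CeD and 2.66, 1.91 and 1.95 in control, lowest in the libraries with the least collagen, control 2, control 3 and CeD 2. The summed FPKM of the same markers had another order, with 108, 99.0 and 77.0 FPKM in CeD+GR, 97.7, 103 and 99.0 FPKM in CeD and 84.7, 68.6 and 66.1 FPKM in control. CeD 2 was the second highest library in that sum and CeD+GR 3 was among the low ones, as Fbln1, the most abundant of these markers, was highest in CeD 2 at 77.2 FPKM and lowest in CeD+GR 3 at 13.5 FPKM. Endothelial markers summed to 25.6, 39.3 and 32.0 FPKM in CeD+GR, 26.6, 11.9 and 14.6 FPKM in CeD and 27.9, 11.2 and 18.7 FPKM in control. Smooth muscle markers followed another order, with the highest sum in CeD 3 at 659 FPKM and the lowest in CeD+GR 1 at 78.9 FPKM. The part of these cell types in the collagen levels was not tested.

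CeD was set against control to see how the stimulated DTH model differs from wild-type tissue. No collagen passed (limma, adjusted p = 1 for all 25), nor did any of the 14683 tested genes (0% called); limma-voom on reads recovered from the FPKM also called 0. At an unadjusted p under 0.05 there were 0 collagens, against 40 higher (0.272%) and 63 lower (0.429%) genes in all, and 64 genes with limma-voom. If no gene differed, a fraction of about 0.05 would be expected on average, and these shares lie far below it. They were also below it in the other comparisons. The p-values of the main fit thus look conservative, and a lack of calls does not show that nothing changed. Most fold changes of collagens were nevertheless above 0, in 20 of 25 genes against 50.5% of all tested genes (5 were below 0, against 49.4%), with a median log2 fold change of 0.30 against 0.00 over all tested genes. By class, 6 of 8 fibrillar genes had a positive value with a median of 0.28, 3 of 3 type IV genes with a median of 0.26, and 11 of 14 other genes with a median of 0.31. These counts include Col4a5, which passed the filter only through CeD 1. All fold changes were computed from log2(FPKM + 0.5), and the added 0.5 makes those of low genes smaller than they are.

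Type III and type I chains had the smallest p-values among the fibrillar genes. Col3a1 averaged 12.7 ± 7.43 FPKM in CeD and 7.10 ± 3.55 FPKM in control (SD, n = 3 each), a log2 fold change of 0.72 with an SE of 0.46 and an unadjusted limma p of 0.149. Col1a1 averaged 8.83 ± 5.66 FPKM in CeD and 4.90 ± 3.42 FPKM in control (SD, n = 3 each), a log2 fold change of 0.79 with an SE of 0.55 and an unadjusted limma p of 0.184. In each the interval of the difference included 0, as it did for all 25 genes. With single libraries left out the log2 fold change ran from 0.30 to 1.18 for Col3a1 and from 0.33 to 1.28 for Col1a1. Of type IV, Col4a2 had a log2 fold change of 0.57 with an SE of 0.51 and Col4a5 a log2 fold change of 0.23 with an SE of 0.42. Among other collagens, Col14a1 had a log2 fold change of 0.76 with an SE of 0.61 and Col12a1 a log2 fold change of 0.35 with an SE of 0.32. Among the 25 genes only Col11a2 had groups that did not overlap, lower in CeD, against 2.2% of all tested genes higher and 2.49% lower without overlap, and its reads differed little, 16 to 22 per CeD library and 21 to 29 per control library.

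The direction of these values leaned on single libraries. Without CeD 1, which held the pancreas transcripts, the median was 0.02 and 13 of 25 genes were positive. Leaving out control 2 or control 3 gave medians of 0.11 and 0.18, and leaving out CeD 2 or control 1 gave 0.49 and 0.53. With replicates 2 and 3 only, 20 of 25 genes were positive, with a median of 0.36; replicate 1 alone has 1 library per group and allows no test.

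CeD+GR was set against CeD to see what differed in the model after the nanoparticles. No collagen and no other gene passed (limma, adjusted p = 1 for all collagens, 0% called), and limma-voom called 0 as well. At an unadjusted p under 0.05 there were 0 collagens, against 167 higher (1.14%) and 258 lower (1.76%) genes in all, and 382 genes with limma-voom. Positive fold changes were found in 14 of 25 collagens, against 51.1% of all tested genes, and negative ones in 11, against 48.9%. The median was 0.12 against 0.01. By class, 3 of 8 fibrillar genes were positive (median -0.04), as were 2 of 3 type IV genes (median 0.12) and 9 of 14 other genes (median 0.23). Among the positive genes, Col5a3, Col9a3 and Col11a2 passed the filter only through a CeD+GR library, so their signs are no support.

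The largest value was that of Col11a2, which averaged 6.39 ± 10.5 FPKM in CeD+GR and 0.174 ± 0.00970 FPKM in CeD (SD, n = 3 each), a log2 fold change of 1.80 with an SE of 1.06 and an unadjusted limma p of 0.124. Its CeD+GR libraries lay above all CeD libraries without overlap, as was so for 3.01% of all tested genes, while 3.04% were lower without overlap, but without CeD+GR 3 the log2 fold change was 0.29. Col8a2 averaged 0.424 ± 0.674 FPKM in CeD+GR and 1.62 ± 1.38 FPKM in CeD (SD, n = 3 each), a log2 fold change of -1.15 with an SE of 0.68 and an unadjusted limma p of 0.126, with overlapping groups. Col20a1 had a log2 fold change of 0.70 with an SE of 0.46 and Col27a1 a log2 fold change of 0.48 with an SE of 0.51. With single libraries left out the value ran from -1.81 to -0.66 for Col8a2, from 0.23 to 1.15 for Col20a1 and from -0.08 to 0.96 for Col27a1. The type IV pair went in opposite directions, with a log2 fold change of 0.23 with an SE of 0.50 for Col4a1 and a log2 fold change of -0.41 with an SE of 0.51 for Col4a2. The sign of the collagen median was not stable to single libraries. It was -0.20 without CeD 2, -0.00 without CeD 3, 0.01 without CeD+GR 3, 0.03 without CeD+GR 2 and 0.29 without CeD 1.

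**Figure D4:**
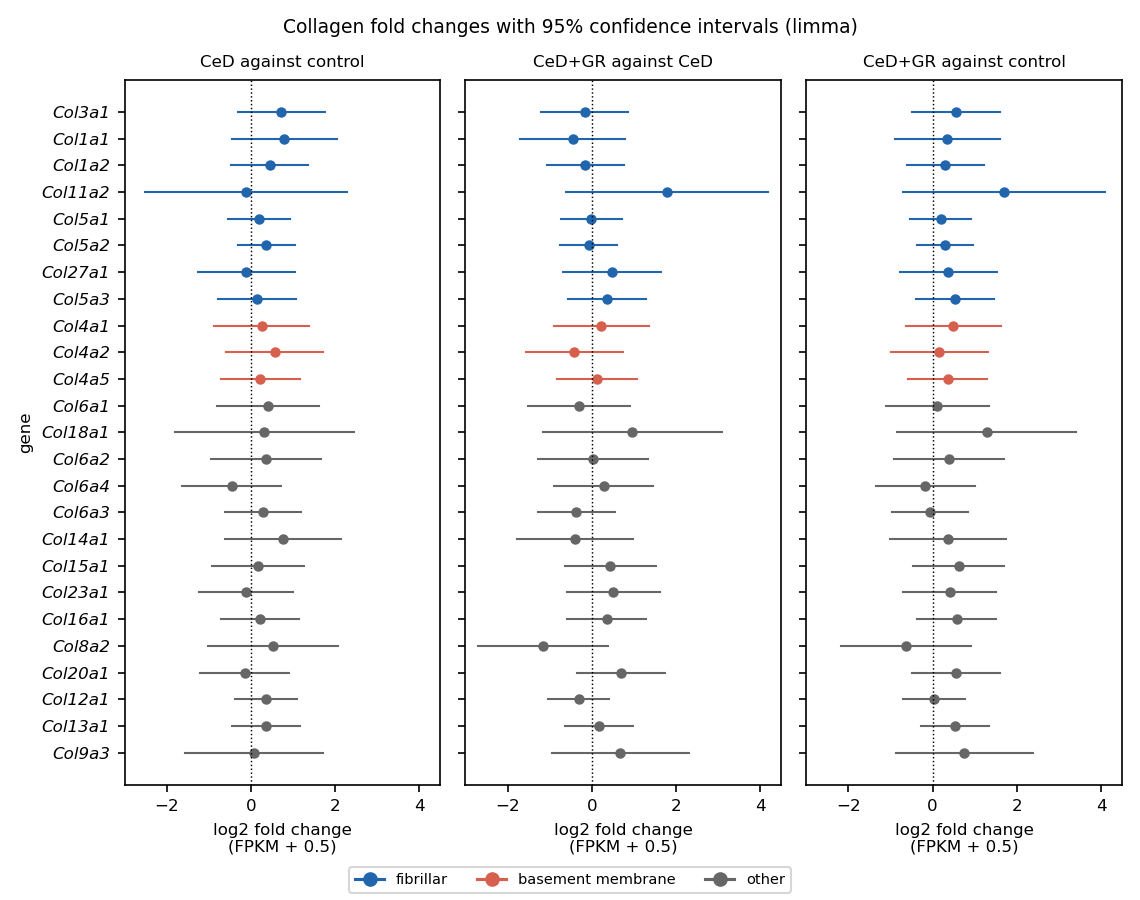
Log2 fold changes of the 25 tested collagen genes with 95% confidence intervals from limma, on the scale of log2(FPKM + 0.5), in a panel per comparison, coloured by class. Every interval includes 0, points lie mostly right of 0 in both comparisons with control, with 20 and 22 of 25 positive, and 14 of 25 are positive for CeD+GR against CeD. Col5a3, Col9a3 and Col11a2 passed the filter only through a CeD+GR library, and Col4a5 only through CeD 1.

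Against control, CeD+GR had positive fold changes in 22 of 25 collagens, where 49.7% of all tested genes were positive and 50.3% negative, and a median of 0.38 against -0.00. All 8 fibrillar genes were positive with a median of 0.36, as were 3 of 3 type IV genes with 0.36 and 11 of 14 other genes with 0.39. The positive genes again include Col5a3, Col9a3 and Col11a2, which passed the filter only through a CeD+GR library. Their signs were favoured by that filter and are no support for these counts. Again no collagen and no other gene passed (limma, adjusted p = 1 for all collagens, 0% called), also with limma-voom. There were 0 collagens at an unadjusted p under 0.05, against 193 higher (1.31%) and 207 lower (1.41%) genes in all, and 335 genes with limma-voom. None of the 25 collagens had groups without overlap, as was so for 2.54% of all genes higher and 3.04% lower. This comparison shares its control libraries with the first and its CeD+GR libraries with the second, so the values are not independent of each other. Col11a2 had a log2 fold change of 1.69 with an SE of 1.06, Col5a3 a log2 fold change of 0.52 with an SE of 0.41, Col13a1 a log2 fold change of 0.54 with an SE of 0.36 and Col16a1 a log2 fold change of 0.57 with an SE of 0.41. With single libraries left out these ran from 0.18 to 2.57 for Col11a2, 0.19 to 0.90 for Col5a3, 0.34 to 0.85 for Col13a1 and 0.22 to 0.85 for Col16a1. Type IV values were a log2 fold change of 0.49 with an SE of 0.50 for Col4a1 and a log2 fold change of 0.36 with an SE of 0.42 for Col4a5, with ranges of 0.23 to 0.95 and 0.09 to 0.61. The median was 0.13 without control 2, 0.22 without CeD+GR 3, 0.65 without control 1 and 0.69 with replicates 2 and 3 only, when 23 of 25 genes were positive.

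Standard errors of the collagen fold changes ran from 0.30 to 1.06 with a median of 0.49, against a median of 0.35 over all tested genes.

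Genes that fold and modify collagen were described beside the chains. Of 18 listed, 16 were tested and none passed in any comparison (limma, 0 called each). Positive fold changes were found in 13 of 16 for CeD against control (median 0.24), 11 of 16 for CeD+GR against CeD (0.24) and 14 of 16 for CeD+GR against control (0.45). Over all tested genes the shares were 50.5%, 51.1% and 49.7% in the same order. How far single libraries carry these counts was not tested. Serpinh1, the collagen chaperone HSP47, had 6.74, 16.3 and 14.7 FPKM in CeD+GR, 11.6, 10.8 and 19.0 FPKM in CeD and 7.76, 8.30 and 8.78 FPKM in control. All CeD libraries lay above all control libraries, with a log2 fold change of 0.66, an SE of 0.35 and an unadjusted limma p of 0.0919. Such a gap held for 2 of the 16 genes, the other being Fkbp10, and for 2.2% of all tested genes. Plod1, a lysyl hydroxylase, Fkbp10, a prolyl isomerase of the endoplasmic reticulum, and P3h4, a partner of lysyl hydroxylation, were all highest in CeD+GR 3, at 7.30, 19.7 and 26.8 FPKM, against at most 2.02, 2.25 and 4.32 FPKM elsewhere. Mia3, which helps load bulky procollagen into transport carriers, was at 67.6 FPKM there and at 18 to 30.8 FPKM in the others.

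Of 13 genes for procollagen cleavage and crosslinking, 6 were tested and none passed, with medians of 0.20 for CeD against control, -0.16 for CeD+GR against CeD and 0.23 for CeD+GR against control. Lox, the enzyme lysyl oxidase that crosslinks collagen and elastin, had 0.537, 1.86 and 7.39 FPKM in CeD+GR, 0.700, 0.115 and 0.101 FPKM in CeD and 0.697, 0.241 and 0.308 FPKM in control. CeD+GR 3 was the highest and CeD 3 the lowest, with a log2 fold change of 1.81, an SE of 0.67 and an unadjusted limma p of 0.0252 for CeD+GR against CeD, and the 2 groups overlapped. Pcolce, an enhancer of procollagen cleavage, had 1.18, 1.94 and 2.27 FPKM in CeD+GR, 2.04, 1.38 and 3.11 FPKM in CeD and 1.71, 0.786 and 0.930 FPKM in control.

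**Figure D5:**
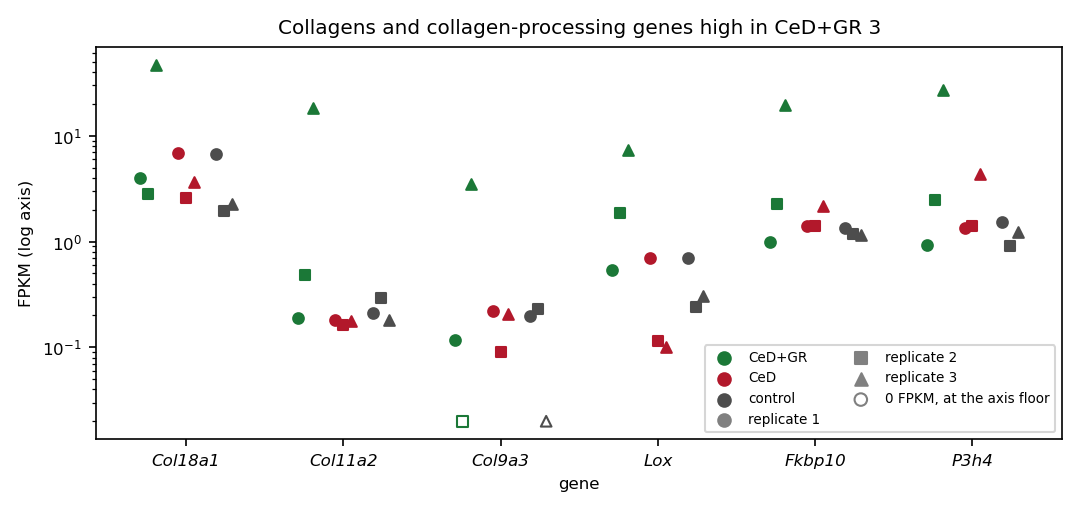
FPKM of Col18a1, Col11a2, Col9a3, Lox, Fkbp10 and P3h4 on a log axis, 1 point per library, coloured by group and shaped by replicate number, with open symbols at the axis floor for 0 FPKM. The CeD+GR 3 library stands above the other 8 in all 6 genes, which were picked for this after their values were seen. It is the library with the high Tff2 and Muc6 levels.

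Of 11 collagen receptor genes, 8 were tested and none passed. Positive fold changes were found in 7 of 8 for CeD against control (median 0.18), 1 of 8 for CeD+GR against CeD (-0.14) and 4 of 8 for CeD+GR against control (-0.01). The shares over all tested genes were 50.5%, 51.1% and 49.7%. Ddr2, a receptor tyrosine kinase that fibrillar collagens switch on, had 1.40, 2.17 and 1.35 FPKM in CeD+GR, 2.73, 2.97 and 5.63 FPKM in CeD and 2.30, 2.40 and 2.35 FPKM in control. For CeD+GR against CeD the log2 fold change was -0.96, with an SE of 0.29 and an unadjusted limma p of 0.00881, and the CeD+GR libraries lay below all CeD and all control libraries, where 3.04% of all tested genes were lower without overlap in each of these comparisons. Ddr2 was highest in CeD 3, the library with the highest smooth muscle marker sum, and the part of smooth muscle in its level was not tested. Adgrg1, an adhesion receptor that binds type III collagen, was at 23.7 FPKM in CeD+GR 3 and at 2.12 to 5.25 FPKM elsewhere. Basement membrane partners, the laminins, nidogens and proteoglycans, had 13 of 16 members tested, none passing, with medians of 0.35 for CeD against control, -0.06 for CeD+GR against CeD and 0.21 for CeD+GR against control. Nid1, which ties laminin to type IV collagen, had 3.89, 3.99 and 2.93 FPKM in CeD+GR, 7.43, 3.52 and 4.37 FPKM in CeD and 6.08, 2.41 and 2.88 FPKM in control, with CeD 1 and control 1 the highest and CeD+GR 3, a high library for Col4a1, the lowest of its group.

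TGF-beta is a growth factor known to raise collagen transcription in fibroblasts. All 11 genes of its ligands, receptors, Smad proteins and targets were tested and none passed. Tgfb1, the ligand, had 2.69, 2.80 and 5.30 FPKM in CeD+GR, 2.24, 1.22 and 1.60 FPKM in CeD and 2.85, 1.42 and 1.92 FPKM in control. Its CeD+GR libraries lay above all CeD libraries, with a log2 fold change of 0.87, an SE of 0.33 and an unadjusted limma p of 0.0266, and 3.01% of all tested genes were higher without overlap in that comparison. Medians of the list were 0.10 for CeD against control, 0.08 for CeD+GR against CeD and 0.20 for CeD+GR against control. Ctgf, a matrix protein used as a readout of TGF-beta, had 1.76, 3.84 and 4.08 FPKM in CeD+GR, 2.0, 1.84 and 3.18 FPKM in CeD and 2.76, 2.84 and 3.19 FPKM in control, with overlapping groups.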

How the data were processed

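RNA of 9 mouse duodenum samples, 3 per group, was grouped by the treatment in the labels. The authors deposited FPKM per gene in 1 table with gene lengths and mm10 coordinates. Per the submitters' processing notes, which give no role or order, the tools were DESeq2 1.20.0, featureCounts 1.5.0-p3, HISAT2 2.0.5 and fastp. How strand was counted and the exact formula of the FPKM were not given in the sources used here. Multiplied by gene length, 100% of the deposited FPKM above 0 came out as whole numbers of reads within 0.1 reads, with 1 unit for each library. These units correspond to library sizes of 14410550 to 18206426, which differ from the reads in genes, so the values were already scaled between libraries.

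The analysis used log2(FPKM + 0.5) of the 14683 genes that averaged 0.5 FPKM or more. A model with a mean for each group was fitted to all 9 libraries with limma 3.58.1 (R 4.3.3), using moderated variances with a trend on the mean level. P-values were two-sided, with Benjamini-Hochberg adjustment over all tested genes and a threshold of 0.05. The fit was also run on simulated data, with noise drawn independently for each gene and library. Such data lack deviations that many genes of a library share, so that run cannot speak for them. Classes of collagens are described by counts and medians, with no test over a list. The collagen genes, gene lists and tests were chosen with earlier results of these data known.

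Values per library are given for 16 collagens of the main classes, except that Col17a1 is given by its range. They are also given for the 2 tested members per class and comparison with the smallest unadjusted p, and fold changes for the members chosen by p. Of each other gene list, up to 3 members per comparison with the smallest unadjusted p could be named. Promoter windows are from RefSeq (GRCm38.p6), where 35 of the 44 genes matched, and transcript lengths are from GENCODE M21, where all 44 identifiers were found.

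The alternatives changed the pseudocount (0.1 or 1), the filter (none, or 2 FPKM), the scaling (median-of-ratios factors or quantiles), the samples (only the groups compared, replicates 2 and 3, without CeD 1 and CeD+GR 3, or without each library in turn), the model (no trend, array weights, a replicate block, a term for replicate 1), the genes (protein-coding) and the test (limma-voom on the recovered reads with the library sizes above).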

Additional observations from a re-analysis of the deposited data

How the results depend on the processing

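Under 25 alternatives, 0 collagens were called in each of the 3 comparisons. All 300 class and collagen medians moved by less than the spread of the mean collagen level between libraries, although some changed sign. That spread was 0.40 to 0.60 by class, above every median of the main fit, of which the largest was 0.39. A median could thus fall to 0 and still count as unmoved, so this count cannot show that the medians were stable. For CeD against control the collagen median went from 0.30 to 0.02 without CeD 1. Single fold changes kept their sign in 434 of 441 values. The exceptions were Col4a5 for CeD against control, at -0.14 without CeD 1 and CeD+GR 3, at -0.00438 with a term for replicate 1 besides, and from -0.14 to 0.48 with single libraries left out. Col4a1 for CeD+GR against CeD was -0.025 without CeD 1 and CeD+GR 3 with a term for replicate 1, and ran from -0.20 to 0.63 with single libraries left out, and Col27a1 ran from -0.076 to 0.96. The number of genes called for CeD+GR against control was 0 or 1 with single libraries left out, the 1 being Gm22615 without control 1 (limma, adjusted p = 0.0137), named after its value was seen. A cause was not tested for any of these. Over all alternatives the collagen median ran from 0.02 to 0.53 for CeD against control, from -0.20 to 0.39 for CeD+GR against CeD and from 0.13 to 0.69 for CeD+GR against control.

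Samples that share a replicate number did not all deviate together, since CeD+GR 3 correlated at -0.12 with CeD 3 and at -0.11 with control 3, against 0.25 to 0.71 for the other pairs of equal number. Pairs of unequal number ran from -0.62 for CeD 3 with control 1 to 0.50 for CeD+GR 2 with CeD 3. CeD 3 with control 2 was at 0.46, so the numbers 2 and 3 are not set apart by these values. The deviations were taken from group means of 3 libraries and sum to 0 within a group. A shift shared by the replicate 1 libraries alone would thus raise the correlations among libraries 2 and 3, whether matched or not. With the replicate number as a block, 0 genes were called in each comparison, and the genes with an unadjusted p under 0.05 numbered 193 for CeD against control, 805 for CeD+GR against CeD and 643 for CeD+GR against control, where the fit without the block gave 103, 425 and 400. Among the collagens, 1 of 25 had such a p in the first of these and 0 in the others. Over all alternatives there were at most 3 such collagens for CeD against control, without control 1. In that setting 414 of all 14683 tested genes had such a p. For CeD+GR against CeD there were at most 2 collagens, in settings with 457 to 1870 such genes in all. For CeD+GR against control there were at most 3, with replicates 2 and 3 only (946 genes in all) or without CeD+GR 1 (1072 genes). Array weights gave 1354 genes in all with such a p for CeD against control. With 3 libraries per group, the spread between libraries and the low read totals of many collagens limit what could be detected. With transcript lengths, an alternative added after the data were seen, Col3a1 took rank 1 by mean level, Col6a1 rank 2, Col6a2 rank 3, Col4a1 rank 4, Col1a2 rank 6 and Col1a1 rank 8.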
